A study of Homo sapiens with 8 samples.

Results

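The glucocorticoid receptor and 7 genes known as its targets were followed over 4 groups of BEAS-2B cells. The genes are NR3C1, which encodes the receptor, and FKBP5, TSC22D3, PER1, DUSP1, SGK1, ANGPTL4 and ZFP36. They were taken by symbol from the deposited count files, and all 8 were found among the 50006 genes listed. BEAS-2B is an immortalised line from human bronchial epithelium, here wild type (WT). RNA sequencing compared 3 exposures with a buffer control, and the series asks about adhesion-related changes.

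The groups were aC (labelled αC, the αC domain of fibrinogen), FCP (labelled M1-FCP, preparations derived from the mite allergen Der m 1), FBG (fibrinogen) and Mock (PBS). The first 3 were given at 4 ng/µl for 4 h. The labels give no time for Mock and do not spell out FCP. Each group had 2 libraries, numbered as biological replicates, 8 in all. The labels do not say whether the libraries of a group came from separate cultures, so the p-values rest on a spread within pairs that may be technical. All groups were grown in the serum-free medium LHC-9, whose published recipe contains hydrocortisone. The labels name no glucocorticoid among the treatments.

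The receptor is held in the cytoplasm by a chaperone complex built on HSP90. Once it has bound cortisol or a synthetic glucocorticoid it enters the nucleus, binds glucocorticoid response elements and raises or lowers transcription. In airway epithelium this pathway is best known as the route by which inhaled corticosteroids raise anti-inflammatory genes and lower cytokine genes. Several of the targets also answer to other signals, among them mitogen and stress kinases, cyclic AMP, serum, hypoxia and fatty acids.

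Library totals ran from 15137196 to 22258791 counts, with 22258791 and 22248780 in aC, 21715092 and 21680688 in FCP, 15137196 and 15144403 in FBG and 16553366 and 16561302 in Mock. All 8 genes passed the filter on low counts, as did 16307 genes in all, and none of the 8 had a copy elsewhere in the annotation. The aC and FCP libraries stood apart from the FBG and Mock libraries in cell type markers. The summed level of 6 basal epithelial markers was 5328 to 5358 TMM-scaled CPM (counts scaled to a common library total) in aC and 5108 to 5123 in FCP, against 1084 to 1087 in FBG and 1088 to 1097 in Mock. The summed level of 8 fibroblast markers was 245.8 to 246.9 CPM in aC and 235.2 to 235.9 in FCP, against 1227 to 1235 in FBG and 2390 to 2423 in Mock. Some defining epithelial markers were low in FBG and Mock: CDH1, the epithelial cadherin, had 6015 and 6036 counts in aC and 5715 and 5729 in FCP, against 121 and 146 in FBG and 75 and 60 in Mock. TP63, which marks basal cells, had 2595 and 2552 counts in aC and 1811 and 1820 in FCP, against 1 and 3 in FBG and 1 and 1 in Mock, and GRHL2 was at 0 in both Mock libraries. Other markers of these lists were abundant in every library. KRT8 had 16380 and 16330 counts in aC and 16867 and 17165 in FCP, against 6443 and 6287 in FBG and 7558 and 7514 in Mock, and KRT18 was 0.15 log2 higher in aC than in Mock. ITGB4 had 10698 to 11185 counts and KRT17 5140 to 5282 in the FBG and Mock libraries. For every difference below between aC or FCP and FBG or Mock, the exposure and this wider division between the libraries cannot be told apart. FBG against Mock and aC against FCP lie within a side of it, although markers also differed between FBG and Mock. The fibroblast sum was lower in FBG, and the median log2 fold change of the 7 epithelial markers there was 0.998. By 2-fold or more, 3 epithelial and 2 basal markers were higher in FBG than in Mock, and 1 basal marker was lower. In RNA of whole cultures, fewer cells of a type and less RNA per cell cannot be told apart.

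Per length, FKBP5 was the most abundant of the 8 in every library, at 138.9 to 197.9 TPM (a share of transcripts, corrected for length). SGK1 was the least abundant in every library, at 7.87 to 15.2 TPM. Between them lay DUSP1 at 75.7 to 137.3 TPM, PER1 at 72.9 to 78.8, ZFP36 at 58.1 to 69.5, NR3C1 at 20.4 to 37.6, ANGPTL4 at 19.9 to 119.1 and TSC22D3 at 13.4 to 32.5. DUSP1 came close to FKBP5 in Mock, at 137.3 and 130.9 TPM beside 138.9 and 139.6. ANGPTL4 ranked second of the 8 in aC and FCP and below PER1 and ZFP36 in FBG and Mock. By TMM-scaled CPM, which compares 1 gene between libraries, the highest library stood above the lowest by 5.05 times for ANGPTL4, 3.2 times for TSC22D3 and 2.39 times for DUSP1. For FKBP5 that ratio was 1.11.

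**Figure D1:**
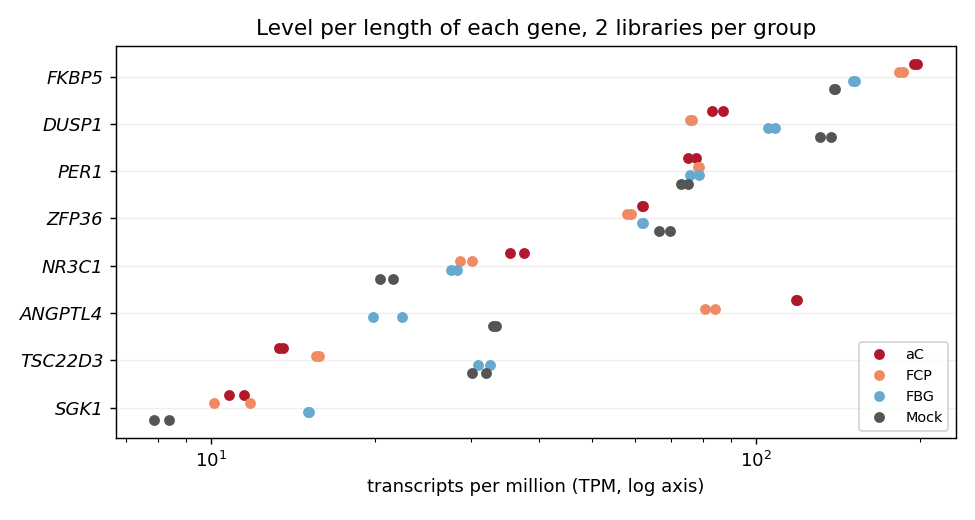
Level per length of the 8 genes in TPM on a log axis, 1 point per library and 2 per group, with aC, FCP, FBG and Mock drawn from top to bottom within each gene. FKBP5 lies highest throughout, while ANGPTL4 spreads from 19.9 TPM in an FBG library to 119.1 TPM in an aC library.

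Each pair of groups was tested with edgeR's quasi-likelihood test over all 16307 genes, and a gene was called where its Benjamini-Hochberg adjusted p was under 0.05. In FBG against Mock 2 of the 8 rose and 5 fell, where 24.2% of all tested genes rose and 26.3% fell. In FCP against Mock 2 rose and 4 fell, where 37.3% of all genes rose and 36.1% fell. For aC against Mock, 3 rose and 4 fell, where 38% rose and 36.7% fell. In FCP against FBG 2 rose and 6 fell, where 32.6% rose and 34.2% fell, and in aC against FBG 3 rose and 5 fell, where 33.8% rose and 34.5% fell. In aC against FCP 4 rose and 1 fell, where 4.57% of all genes rose and 4.45% fell. DESeq2's Wald test called 3 of the 8 as risen and 0 as fallen there. The 8 were chosen with earlier results of these data known, so these counts are a description. The median log2 fold change of the 8 against Mock was -0.17 in aC, -0.15 in FCP and -0.13 in FBG, beside 0.061, 0.057 and 0.015 over all tested genes. In 11 of the 48 tests of these genes the standard error was smaller than the error from counting alone, and no called gene had a counting interval that held 0. Of the fitted 95% intervals of called tests, that of NR3C1 in FCP against Mock held 0, at -0.021 to 0.197. These intervals rest on the 4 residual degrees of freedom alone and are wider than the tests imply, which borrow spread across genes.

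Most of these comparisons called a large part of the transcriptome, so a call alone sets the 8 little apart, and their sizes matter more. By absolute log2 fold change in aC against Mock, 18% of all tested genes changed more than TSC22D3, 21.3% more than ANGPTL4, 30% more than DUSP1, 69.9% more than NR3C1 and 93.8% more than FKBP5. For aC against FCP, 9.25% changed more than ANGPTL4 and 18.7% more than NR3C1. Of the others called there, 23.3% changed more than TSC22D3, 38.5% more than DUSP1 and 61.9% more than FKBP5. Calls of small size also hung on the scaling. With library size in place of TMM, the median over all genes was 0.13, 0.28 and 0.29 log2 in FBG, FCP and aC against Mock, and 5186, 7679 and 7782 genes rose while 3010, 4493 and 4489 fell. With TMM, 3941, 6085 and 6199 rose and 4285, 5884 and 5984 fell. With the summed counts per length, the total behind TPM, those medians were 0.19, 0.46 and 0.48. On that scale 5934, 9099 and 9238 genes rose against Mock and 2397, 3402 and 3317 fell. In FCP against FBG 7533 rose and 3635 fell, in aC against FBG 7780 and 3669, and in aC against FCP 938 and 478, where TMM gave 5319 and 5569, 5511 and 5628, and 745 and 725. Fold changes also followed GC content across genes, with a Spearman correlation of -0.24 for aC, -0.27 for FCP and -0.41 for FBG, each against Mock. A fit with trends on GC content and length removed was therefore run for each gene.

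**Figure D2:**
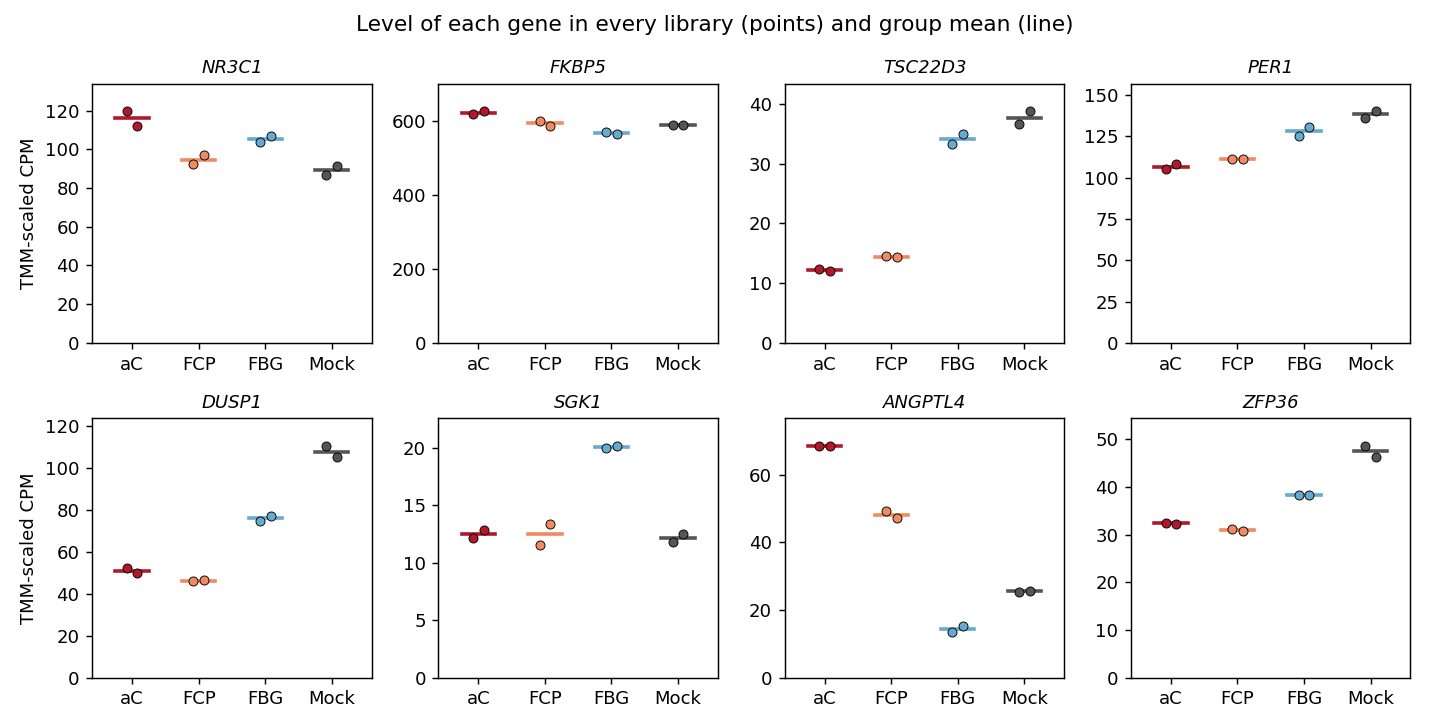
TMM-scaled CPM of each gene in every library, with points for the 2 libraries of a group, a line at the group mean, and groups from aC at the left to Mock at the right. TSC22D3, DUSP1, PER1 and ZFP36 are highest in Mock, SGK1 is highest in FBG, and ANGPTL4 is highest in aC and lowest in FBG.

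NR3C1 lies on chromosome 5 (chr5:143277931-143435512, minus strand, GRCh38.p14). Its level was 119.6 and 112.3 TMM-scaled CPM in aC, 92.5 and 97.0 in FCP, 103.9 and 106.7 in FBG and 86.8 and 91.6 in Mock. Both aC libraries were highest and both Mock libraries lowest, and no groups overlapped. The log2 fold change was 0.38 ± 0.0386 (SE; edgeR adjusted p = 1.01e-08) in aC against Mock, 0.088 ± 0.0392 (adjusted p = 0.0493) in FCP against Mock and 0.24 ± 0.0402 (adjusted p = 2.91e-05) in FBG against Mock. Against FBG it was 0.14 ± 0.038 in aC (edgeR adjusted p = 0.00275) and -0.15 ± 0.0386 in FCP (adjusted p = 0.00155). Between aC and FCP it was 0.29 ± 0.0369 (edgeR adjusted p = 1.05e-05), and this was called under all 16 alternatives, at 0.24 to 0.34.

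The other NR3C1 differences were less settled. With GC and length trends removed they turned to -0.32 in aC against Mock, -0.62 in FCP against Mock, -0.16 in FBG against Mock and -0.16 in aC against FBG, all called. The FCP against FBG fall widened to -0.46 there. NR3C1 has a GC content of 39.1% and an exon length of 10626 bases, and the 2 trends were not removed separately. Scaled by summed counts per length, the values against Mock were 0.80 in aC, 0.49 in FCP and 0.41 in FBG, and FCP against FBG was 0.073 and not called. The FCP against Mock call was lost without Mock replicate 1 (0.038), FBG replicate 1 (0.085), FBG replicate 2 (0.077) or FCP replicate 2 (0.057). It was also lost with DESeq2's size factors or Wald test (0.08 each) and with the replicate block. The aC against FBG call was lost without FBG replicate 1 (0.11) or aC replicate 1 (0.094). The 2 aC libraries of NR3C1 differed by 5.18 times the counting variance, the widest pair among the 8 genes.

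FKBP5 (chr6:35573590-35728583, minus strand) encodes a cochaperone in the HSP90 complex that lowers the receptor's affinity for hormone, and its induction by glucocorticoids forms a feedback loop. It had 619.9 and 625.9 TMM-scaled CPM in aC, 600.0 and 586.6 in FCP, 570.3 and 566.0 in FBG and 588.7 and 590.5 in Mock. The aC libraries were highest and the FBG libraries lowest, while the FCP libraries spanned those of Mock. Its log2 fold change was 0.079 ± 0.0164 in aC against Mock (edgeR adjusted p = 0.000162), -0.053 ± 0.0172 in FBG against Mock (adjusted p = 0.0125) and 0.07 ± 0.0156 in aC against FCP (adjusted p = 0.00442). In FCP against Mock it was 0.009, with a 95% interval of -0.037 to 0.055 (edgeR adjusted p = 0.63).

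Set against FBG, the FKBP5 log2 fold change was 0.13 ± 0.0164 in aC (edgeR adjusted p = 2.33e-07) and 0.063 ± 0.0165 in FCP (adjusted p = 0.00214). No FKBP5 difference from Mock or FBG kept its direction throughout. With GC and length trends removed the gene fell by 0.47 in aC, 0.55 in FCP and 0.35 in FBG, each against Mock, and by 0.12 in aC and 0.21 in FCP against FBG. With library size alone it was 0.06 higher in FBG than in Mock, and with summed counts per length 0.12 higher, both below the medians of all genes on those scales. The FBG against Mock call was lost without FBG replicate 1 (-0.058) or 2 (-0.051), and the FCP against FBG call without FBG replicate 2 (0.05). The aC against FCP call was lost without FCP replicate 2 (0.052) or aC replicate 2 (0.063).

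TSC22D3, DUSP1 and ZFP36 encode proteins that act against inflammatory signalling, and were lower in aC and FCP than in Mock. For ZFP36 no call was left with GC and length trends removed. Among the other induced targets 11 rose and 21 fell in aC against Mock, and 10 rose and 20 fell in FCP against Mock. Some genes known for the same action were among those that rose. Of these, 3 are named here after their values were seen, so they do not stand for the list. TNFAIP3, which limits NF-kB signalling, rose against Mock by 4.52 ± 0.0871 log2 in aC (edgeR adjusted p = 2.15e-15) and by 3.87 ± 0.0884 in FCP (adjusted p = 1.67e-14). NFKBIA rose by 1.505 ± 0.0361 in aC and 0.95 ± 0.0367 in FCP, and the annexin ANXA1 by 1.94 ± 0.0288 in aC and 1.995 ± 0.0288 in FCP, all called.

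TSC22D3 (chrX:107713221-107775988, minus strand) encodes the glucocorticoid-induced leucine zipper protein GILZ, which binds NF-kB and AP-1. It had 12.4 and 12.1 TMM-scaled CPM in aC, 14.6 and 14.3 in FCP, 33.3 and 34.97 in FBG and 36.6 and 38.7 in Mock. The aC and FCP libraries were all far below those of FBG and Mock. The log2 fold change was -1.62 ± 0.0726 in aC against Mock, 0.325 times the Mock level (edgeR adjusted p = 3.12e-15), and -1.38 ± 0.0718 in FCP against Mock, 0.384 times (adjusted p = 5.19e-14). Against FBG it was -1.48 ± 0.0727 in aC (edgeR adjusted p = 2.8e-14) and -1.24 ± 0.072 in FCP (adjusted p = 6.35e-13).

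These 4 falls of TSC22D3 were called under all 16 alternatives, at -1.20 to -1.68 in aC against Mock and -0.98 to -1.43 in FCP against Mock. FBG against Mock was not called, at -0.14 with a 95% interval of -0.33 to 0.053 (edgeR adjusted p = 0.101). DESeq2's size factors made it a call (-0.17), and the value was 0.021 with GC and length trends removed and 0.033 with summed counts per length. The fall in aC against FCP of -0.24 ± 0.0735 (edgeR adjusted p = 0.0435) was lost under 10 of the 16 alternatives. Among them were the fits without FCP replicate 1 (-0.23), FCP replicate 2 (-0.25), aC replicate 1 (-0.26) or aC replicate 2 (-0.23).

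DUSP1 (chr5:172768096-172771195, minus strand) encodes a phosphatase that switches off the p38 and JNK kinases. It had 52.5 and 49.9 TMM-scaled CPM in aC, 46.3 and 46.5 in FCP, 75.1 and 77.4 in FBG and 110.6 and 105.2 in Mock. The groups formed 4 separate steps, with FCP lowest and Mock highest. DUSP1 fell by 1.08 ± 0.0418 log2 in aC against Mock, to 0.474 times (edgeR adjusted p = 2.26e-16), by 1.22 ± 0.0422 in FCP against Mock, to 0.43 times (adjusted p = 2.89e-17), and by 0.50 ± 0.0419 in FBG against Mock, to 0.707 times (adjusted p = 8.27e-10). Against FBG it fell by 0.58 ± 0.0427 in aC (edgeR adjusted p = 4.93e-11) and by 0.72 ± 0.0431 in FCP (adjusted p = 1.27e-12).

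All 5 of these falls of DUSP1 were called under every one of the 16 alternatives, though removing GC and length trends made them smaller, at -0.64 in aC against Mock, -0.77 in FCP against Mock and -0.30 in FBG against Mock. They were -0.66, -0.82 and -0.33 with summed counts per length, in that order. The gene was higher in aC than in FCP by 0.14 ± 0.0429 (edgeR adjusted p = 0.0406). That call was lost without FBG replicate 1 (0.13), FCP replicate 1 (0.14), FCP replicate 2 (0.14) or aC replicate 1 (0.10), with the replicate block (adjusted p = 0.053) and with DESeq2's Wald test (adjusted p = 0.277).

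ZFP36 (chr19:39406847-39409407, plus strand) encodes tristetraprolin, which binds AU-rich elements and speeds the decay of cytokine messenger RNAs. It had 32.5 and 32.2 TMM-scaled CPM in aC, 31.3 and 30.7 in FCP, 38.3 and 38.4 in FBG and 48.6 and 46.4 in Mock. The order of the groups was the same as for DUSP1, but the differences were smaller and aC against FCP was not called. ZFP36 fell by 0.55 ± 0.0561 log2 in aC against Mock (edgeR adjusted p = 7.7e-09), by 0.62 ± 0.0564 in FCP against Mock (adjusted p = 1.35e-09) and by 0.31 ± 0.0569 in FBG against Mock (adjusted p = 8.59e-05). Against FBG it fell by 0.24 ± 0.0568 in aC (edgeR adjusted p = 0.000642) and by 0.31 ± 0.057 in FCP (adjusted p = 5.8e-05). Between aC and FCP it was 0.063, with a 95% interval of -0.092 to 0.22 (edgeR adjusted p = 0.616).

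None of the 5 falls of ZFP36 was called with GC and length trends removed. The log2 fold changes were then -0.063 in aC against Mock, -0.10 in FCP against Mock, -0.078 in FBG against Mock and -0.026 in FCP against FBG, and aC against FBG turned to 0.016. Scaled by summed counts per length, the values were -0.13 in aC against Mock and -0.22 in FCP against Mock, both called. They were -0.13 in FBG against Mock, -0.082 in FCP against FBG and 0.001 in aC against FBG, none called. With library size alone the aC against FBG value was -0.13 and not called.

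PER1 (chr17:8140472-8152404, minus strand) encodes a repressor of the circadian clock and is an early target of the receptor. It had 105.0 and 108.2 TMM-scaled CPM in aC, 111.3 and 111.3 in FCP, 125.2 and 130.6 in FBG and 136.3 and 140.0 in Mock. No groups overlapped, and the order was Mock, FBG, FCP and aC from high to low. PER1 fell by 0.37 ± 0.0315 log2 in aC against Mock (edgeR adjusted p = 3.21e-10), by 0.31 ± 0.0315 in FCP against Mock (adjusted p = 6.91e-09) and by 0.11 ± 0.0322 in FBG against Mock (adjusted p = 0.00614). Against FBG it fell by 0.26 ± 0.0317 in aC (edgeR adjusted p = 1.63e-07) and by 0.20 ± 0.0317 in FCP (adjusted p = 7.88e-06).

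In TPM the PER1 groups were nearly level, at 76.3 ± 1.76 in aC, 78.5 ± 0.171 in FCP, 77.2 ± 2.26 in FBG and 73.9 ± 1.53 in Mock (SD, n = 2 each). With summed counts per length as the scale, the log2 fold change was 0.046 in aC against Mock, 0.087 in FCP against Mock (called), 0.063 in FBG against Mock, 0.025 in FCP against FBG and -0.017 in aC against FBG. All 3 differences from Mock lay below the median of all genes on that scale. With GC and length trends removed the falls against Mock were -0.24 in aC and -0.12 in FCP. PER1 in FBG against Mock was also 0.003 with library size alone and 0.15 with GC and length trends removed (called), and the call was lost without FBG replicate 1 (-0.08) or Mock replicate 2 (-0.095). Its aC against FCP value was -0.061, with a 95% interval of -0.15 to 0.024 (edgeR adjusted p = 0.28), and became a call at -0.12 with GC and length trends removed.

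**Figure D3:**
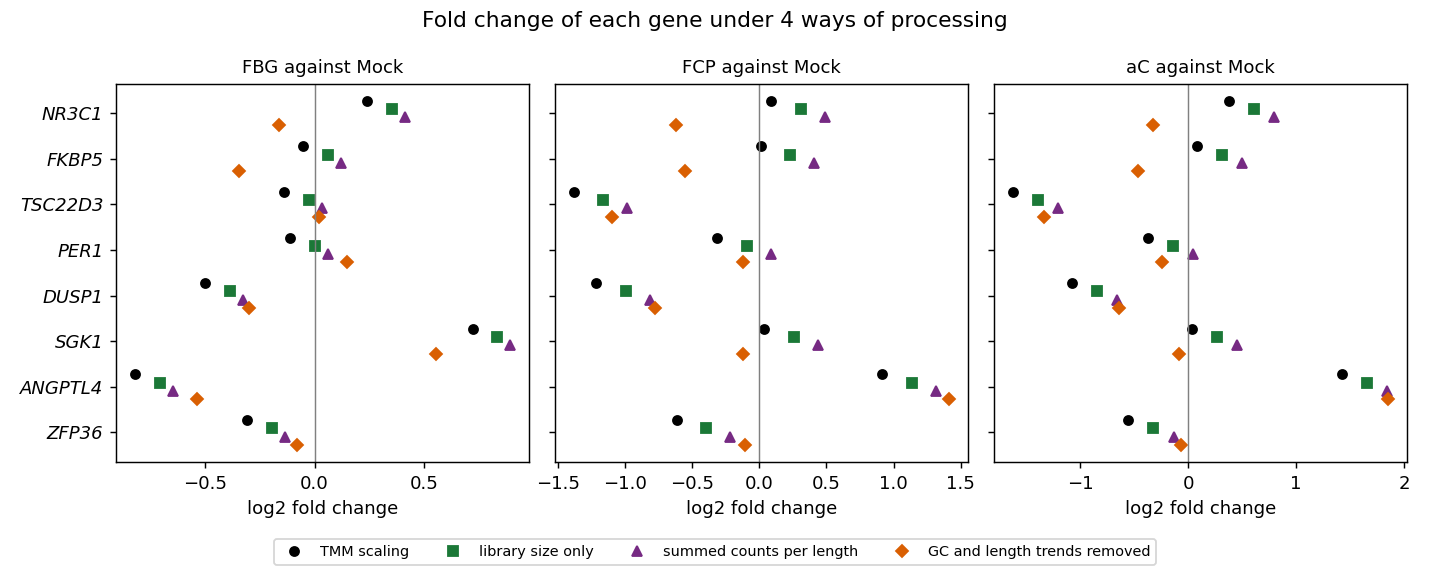
Log2 fold change of each gene against Mock under TMM scaling, library size alone, summed counts per length, and with GC and length trends removed, with 1 panel per exposure. DUSP1 and ANGPTL4 keep their side of 0 in all 3 panels and TSC22D3 in the FCP and aC panels, whereas with the trends removed NR3C1 crosses it in all 3 and FKBP5 in the FCP and aC panels.

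SGK1 (chr6:134169256-134318112, minus strand) encodes a kinase that keeps epithelial sodium channels at the cell surface. It had 12.14 and 12.86 TMM-scaled CPM in aC, 11.53 and 13.4 in FCP, 20.02 and 20.14 in FBG and 11.8 and 12.53 in Mock. Both FBG libraries were above all 6 others, and those of aC, FCP and Mock overlapped. SGK1 rose in FBG against Mock by 0.72 ± 0.0992 log2, to 1.65 times (edgeR adjusted p = 1.88e-06). Against FBG it fell by 0.68 ± 0.0971 in aC (edgeR adjusted p = 1.71e-06) and by 0.69 ± 0.0972 in FCP (adjusted p = 1.72e-06). These 3 differences were called under all 16 alternatives, at 0.56 to 0.90 in FBG against Mock. The smallest falls against FBG, with summed counts per length, were -0.44 in aC and -0.46 in FCP.

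Between the other groups SGK1 was not called. The log2 fold change was 0.039 in aC against Mock, with a 95% interval of -0.24 to 0.31 (edgeR adjusted p = 0.732), and 0.035 in FCP against Mock, with one of -0.24 to 0.31 (adjusted p = 0.758). Between aC and FCP it was 0.004, with an interval of -0.27 to 0.27 (edgeR adjusted p = 0.994). With library size alone the values against Mock became calls at 0.27 in aC and 0.26 in FCP, and with summed counts per length at 0.46 and 0.43. Each lay near the median of all genes on its scale.

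ANGPTL4 (chr19:8364155-8374370, plus strand) encodes a secreted inhibitor of lipoprotein lipase and is also a target of PPAR factors and of hypoxia. It had 68.4 and 68.4 TMM-scaled CPM in aC, 49.2 and 47.1 in FCP, 13.6 and 15.3 in FBG and 25.3 and 25.7 in Mock. The groups lay far apart, with aC highest and FBG lowest. ANGPTL4 rose by 1.42 ± 0.0601 log2 in aC against Mock, to 2.68 times (edgeR adjusted p = 1.07e-15), and by 0.92 ± 0.0605 in FCP against Mock, to 1.89 times (adjusted p = 4.18e-12). Under FBG it fell by 0.82 ± 0.0678 against Mock, to 0.566 times (edgeR adjusted p = 6.57e-10).

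Against FBG, ANGPTL4 was 4.74 times as high in aC (log2 2.25 ± 0.0641, edgeR adjusted p = 1.28e-18) and 3.34 times in FCP (1.74 ± 0.0644, adjusted p = 1.76e-16). Over FCP, the aC level rose by 0.51 ± 0.0562, to 1.42 times (edgeR adjusted p = 1.44e-06). Each of the 6 differences was called in the same direction under all 16 alternatives. With GC and length trends removed the values against Mock were 1.86 in aC, 1.42 in FCP and -0.54 in FBG. The standard errors in the comparisons with FBG were smaller than counting alone gives, namely 0.0871 in FBG against Mock, 0.0742 in aC against FBG and 0.0762 in FCP against FBG.

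**Figure D4:**
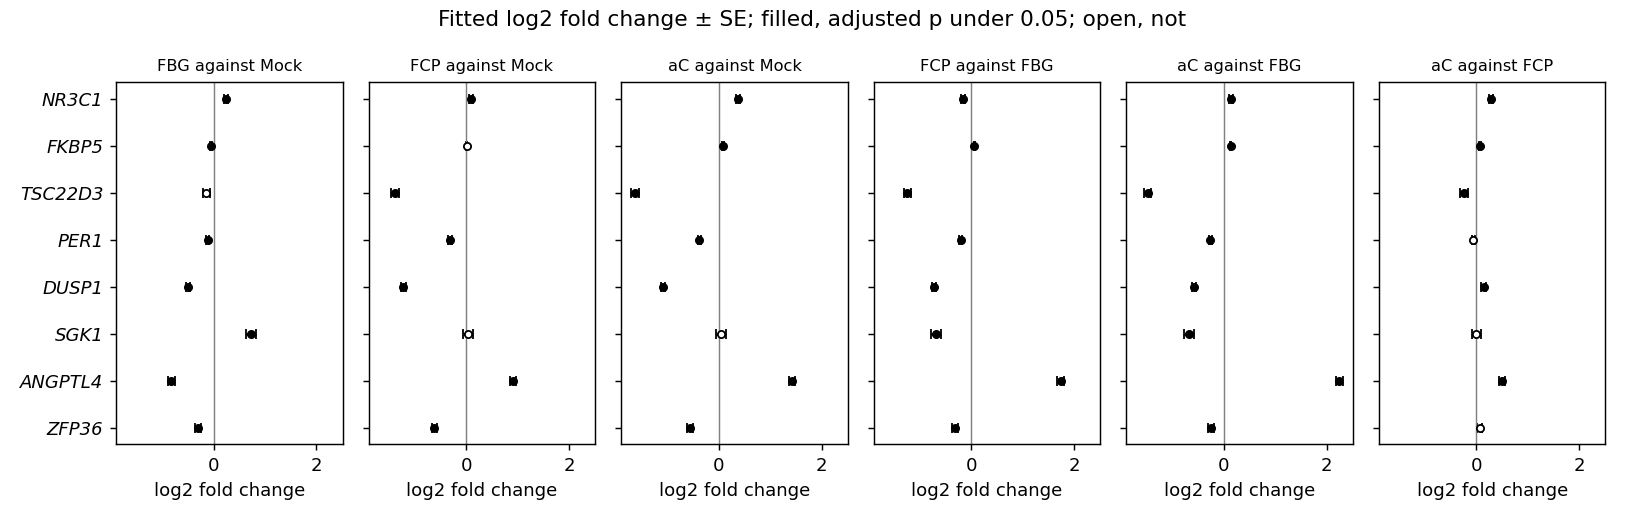
Fitted log2 fold change with its standard error for the 8 genes in the 6 comparisons, where filled points have an edgeR adjusted p under 0.05. TSC22D3 and DUSP1 lie to the left in the comparisons of aC or FCP with Mock or FBG, and ANGPTL4 reaches 2.25 in aC against FBG.

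Sequence windows of 250 bases before to 50 after the start site were taken from RefSeq (GRCh38.p14) and searched on both strands, 20 windows for the 8 genes. The core of the glucocorticoid response element, GNACANNNTGTNC, was in none of the 20, and in 0.39% of all 35116 windows. Its half-site AGAACA was in 2 of the 20, 1 each of FKBP5 and SGK1, and in 14.8% of all windows. The cyclic AMP response element TGACGTCA was in 1, that of DUSP1, and in 1.85% of all. Its half-site TGACG, which the full element also contains on each strand, was in 7 windows of NR3C1, TSC22D3 and DUSP1, and in 24.6% of all. The CArG box was in none of the 20 and in 1.29% of all. The windows below belong to genes whose levels differed most plainly between groups and hold a match. All lie on the minus strand and are written 5′ to 3′, with matches to the half-sites or the full element in capitals. They are chr5:172771146-172771445 for DUSP1, chrX:107717013-107717312 for TSC22D3 and chr6:134177812-134178111 for SGK1.
DUSP1: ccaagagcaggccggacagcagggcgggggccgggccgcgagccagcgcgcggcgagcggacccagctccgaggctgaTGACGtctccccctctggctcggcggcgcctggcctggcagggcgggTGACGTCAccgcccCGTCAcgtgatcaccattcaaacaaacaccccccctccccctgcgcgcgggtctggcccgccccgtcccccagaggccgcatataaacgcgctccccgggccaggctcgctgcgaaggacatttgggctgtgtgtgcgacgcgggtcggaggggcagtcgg
TSC22D3: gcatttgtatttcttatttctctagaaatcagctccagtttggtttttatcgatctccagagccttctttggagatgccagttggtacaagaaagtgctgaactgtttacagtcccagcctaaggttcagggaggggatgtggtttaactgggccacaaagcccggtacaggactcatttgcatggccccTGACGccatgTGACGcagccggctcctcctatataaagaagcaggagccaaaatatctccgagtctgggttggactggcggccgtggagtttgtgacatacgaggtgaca
SGK1: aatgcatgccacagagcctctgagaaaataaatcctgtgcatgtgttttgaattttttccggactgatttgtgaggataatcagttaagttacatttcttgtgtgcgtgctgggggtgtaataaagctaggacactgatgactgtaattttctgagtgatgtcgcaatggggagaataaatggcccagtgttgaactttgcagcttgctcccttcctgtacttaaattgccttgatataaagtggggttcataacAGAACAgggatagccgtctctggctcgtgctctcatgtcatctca
The full element of DUSP1 lies 125 bases before the start site (chr5:172771313-172771320). A match is a run of letters and says nothing of binding in these cells, and enhancers farther away were not searched.

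Around the receptor, 20 of 21 partner genes passed the filter, among them the HSP90 chaperones, HSD11B2, which inactivates cortisol, and coactivators. HSD11B1, which activates cortisol, did not pass it. For aC against Mock 9 rose and 10 fell, in FCP against Mock 10 rose and 7 fell, and in FBG against Mock 7 rose and 10 fell. Of all tested genes 38% rose and 36.7% fell in aC, 37.3% and 36.1% in FCP, and 24.2% and 26.3% in FBG. These shares are also the background for the counts of the lists below. Between aC and FCP 2 rose and 8 fell, with a median log2 fold change of -0.038 beside 0.002 over all genes. On the scale of summed counts per length 14 rose and 6 fell in aC against Mock, 13 and 6 in FCP against Mock, and 11 and 7 in FBG against Mock. The chaperone organiser STIP1 fell by 0.39 ± 0.0164 in FBG against Mock (edgeR adjusted p = 5.36e-15) and by 0.18 ± 0.0167 in aC against FCP (adjusted p = 1.1e-07). The chromatin remodeller SMARCA4 fell by 0.38 ± 0.0183 in FBG against Mock (edgeR adjusted p = 7.02e-14). These FBG against Mock falls, with GC and length trends removed, were -0.20 for STIP1 and -0.14 for SMARCA4, and with summed counts per length -0.22 and -0.20. HSP90AB1, a constitutive HSP90, fell by 0.14 ± 0.00173 in aC against FCP (edgeR adjusted p = 1.37e-13), where the counting error alone is 0.0062.

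NR3C2, the mineralocorticoid receptor, which also binds cortisol, and HSD11B2, the enzyme that inactivates cortisol, are named here after their values were seen. NR3C2 had 81 and 76 counts in aC, 52 and 71 in FCP, 49 and 42 in FBG and 96 and 102 in Mock. It fell by 0.99 ± 0.207 log2 in aC against Mock (edgeR adjusted p = 0.000181), by 1.30 ± 0.21 in FCP against Mock (adjusted p = 8.57e-06) and by 1.10 ± 0.212 in FBG against Mock (adjusted p = 0.000136). HSD11B2 had 61 and 60 counts in aC, 50 and 59 in FCP, 15 and 7 in FBG and 9 and 14 in Mock. It rose by 1.73 ± 0.332 in aC against Mock (edgeR adjusted p = 7.12e-05) and by 1.63 ± 0.334 in FCP against Mock (adjusted p = 0.000154), while FBG against Mock was -0.048 (adjusted p = 0.94). These directions held under each of the 3 other scalings and with GC and length trends removed, save that HSD11B2 in FBG against Mock changed sign without being called. HSD11B1, the activating enzyme, had 3 and 2 counts in aC, 5 and 4 in FCP and 0 in all 4 libraries of FBG and Mock.

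Of 40 other genes known to be induced by glucocorticoids, 36 passed the filter. For aC against Mock 11 rose and 21 fell, with a median of -0.26 log2 beside 0.061 over all genes. In FCP against Mock 10 rose and 20 fell (median -0.37 beside 0.057), and in FBG against Mock 11 rose and 15 fell (median 0.002 beside 0.015). Set against FCP, aC had 11 that rose and 1 that fell (median 0.12 beside 0.002). The calls against Mock depended on the scale: with summed counts per length 17 rose and 14 fell in aC and 15 rose and 16 fell in FCP. MT1X, a metallothionein, fell by 0.97 ± 0.0272 in FBG against Mock (edgeR adjusted p = 4.94e-18). DDIT4, an inhibitor of mTOR signalling, fell by 0.69 ± 0.0268 there (edgeR adjusted p = 1.48e-15), and by 0.45 with GC and length trends removed. CEBPD, a transcription factor, rose by 0.85 ± 0.0416 in aC against FCP (edgeR adjusted p = 1.82e-12) and NFKBIA, the inhibitor of NF-kB, by 0.56 ± 0.0328 (adjusted p = 5.09e-11). CEBPD and NFKBIA are targets of NF-kB or cytokine signalling as well.

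Genes that glucocorticoids are known to repress, mostly cytokines and adhesion molecules, were high in aC. Their summed level was 969.2 to 978.4 TMM-scaled CPM in aC, 537.8 to 545.8 in FCP, 319.8 to 324.7 in FBG and 329.9 to 331.3 in Mock. ICAM1 alone made up the larger part of that sum, with means of 574.3 in aC, 318.5 in FCP, 204.7 in FBG and 186.3 in Mock. Of 16 genes 13 passed the filter. In aC against Mock 10 rose and 2 fell (median 1.62 log2), in FCP against Mock 6 rose and 5 fell (median 0.77), and in FBG against Mock 2 rose and 5 fell (median -0.19). In aC against FCP 9 rose and 0 fell, with a median of 0.91 beside 0.002 over all genes, and 8 to 11 rose and 0 fell under the 16 alternatives, DESeq2 among them. At an unadjusted p under 0.05 edgeR gave 10 risen and 1 fallen.

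The adhesion receptor ICAM1 rose by 0.85 ± 0.0189 log2 in aC against FCP (edgeR adjusted p = 4.96e-19), and the cytokine LIF by 0.91 ± 0.0378 (adjusted p = 1.02e-13). ICAM1 had 580.2 and 568.4 TMM-scaled CPM in aC, 318.1 and 319.0 in FCP, 204.3 and 205.1 in FBG and 183.0 and 189.6 in Mock. The chemokine CCL2 fell by 3.53 ± 0.176 in FBG against Mock (edgeR adjusted p = 1.1e-13) and CXCL8 by 0.55 ± 0.0976 (adjusted p = 5.82e-05), or 0.83 with GC and length trends removed. CCL2 had 279 and 251 counts in aC, 85 and 109 in FCP, 21 and 17 in FBG and 231 and 214 in Mock, so the FBG libraries were lowest by far. Whether activity of the receptor had a part in any of these differences was not tested.

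**Figure D5:**
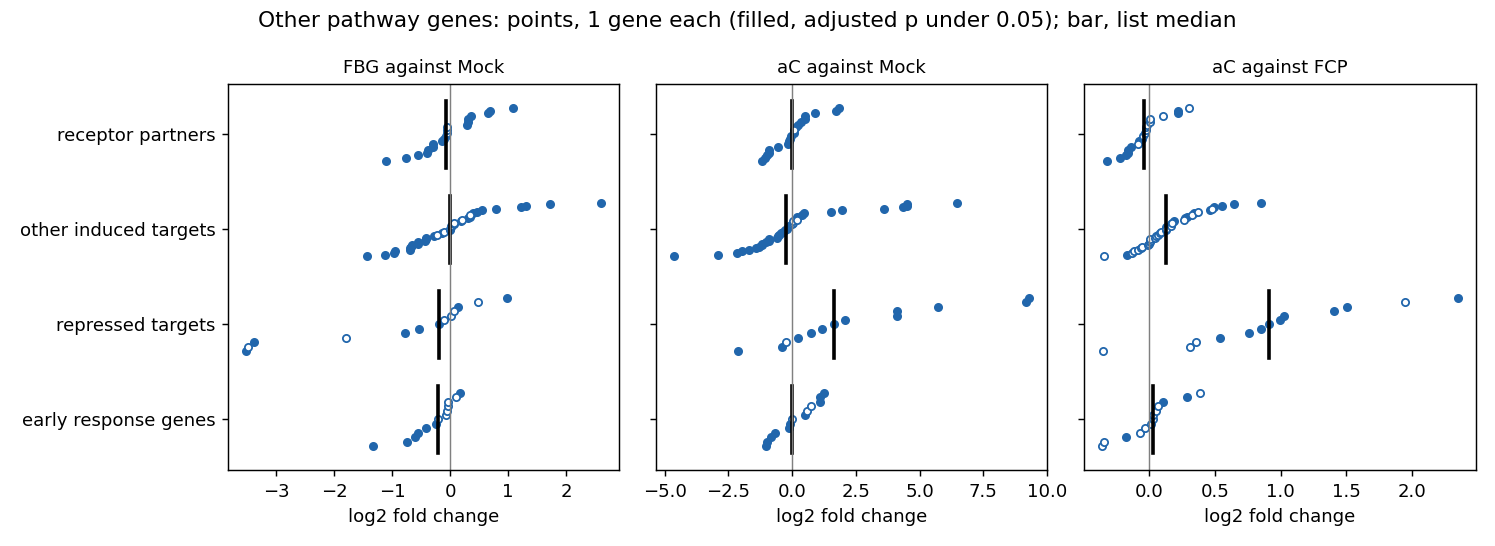
Log2 fold change of genes around the receptor in FBG against Mock, aC against Mock and aC against FCP, 1 point per gene, filled where the edgeR adjusted p is under 0.05, with a bar at the list median. The repressed targets have medians of 1.62 in aC against Mock and 0.91 in aC against FCP, against -0.19 in FBG against Mock.

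DUSP1, ZFP36 and SGK1 are also early response genes, and 13 of 14 other genes of that kind passed the filter. In FBG against Mock 1 rose and 6 fell, with a median of -0.20 log2 beside 0.015 over all genes. MYC fell by 1.34 ± 0.0293 (edgeR adjusted p = 7.52e-20) and EGR1 by 0.75 ± 0.02 (adjusted p = 1.71e-16). In aC against Mock 4 rose and 6 fell, in FCP against Mock 4 rose and 5 fell, and in aC against FCP 2 rose and 1 fell. Of all tested genes 38% rose and 36.7% fell in aC against Mock, and 37.3% and 36.1% in FCP against Mock. In aC against FCP 4.57% of all genes rose and 4.45% fell. Both in aC and in FCP against Mock, 9 rose and 3 fell with summed counts per length. JUNB, a subunit of AP-1, rose by 0.29 ± 0.0333 in aC against FCP (edgeR adjusted p = 2.37e-06) and EGR1 fell by 0.18 ± 0.0196 (adjusted p = 3.87e-06).

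Close relatives of the 8 were taken from the same families, and 13 of 18 passed the filter. For aC against Mock 3 rose and 10 fell (median -0.73 log2), in FCP against Mock 3 rose and 10 fell (median -0.73), and in FBG against Mock 3 rose and 6 fell (median -0.066). Against FCP, 2 rose and 4 fell in aC. The FBG against Mock counts were 5 risen and 5 fallen with summed counts per length. ZFP36L2, a relative of ZFP36, fell by 0.54 ± 0.0198 in FBG against Mock (edgeR adjusted p = 6.06e-16), or 0.35 with GC and length trends removed, and rose by 0.21 ± 0.0205 in aC against FCP (adjusted p = 2.41e-07). ZFP36L1 rose by 0.25 ± 0.0262 in aC against FCP (edgeR adjusted p = 6.8e-07). DUSP6, a phosphatase for the ERK kinases, rose by 0.68 ± 0.0292 in FBG against Mock (edgeR adjusted p = 7.93e-15), where DUSP1 fell.

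All 13 other clock genes passed the filter. In aC against Mock 4 rose and 7 fell, in FCP against Mock 4 rose and 7 fell, and in FBG against Mock 3 rose and 3 fell. Of all tested genes 38% rose and 36.7% fell in aC, 37.3% and 36.1% in FCP, and 24.2% and 26.3% in FBG. In aC against FCP 1 clock gene rose and 0 fell, likewise at an unadjusted edgeR p under 0.05 and with DESeq2, where 4.57% of all genes rose and 4.45% fell. CLOCK, an activator of PER1, rose by 0.76 ± 0.0426 in FBG against Mock (edgeR adjusted p = 8.84e-13), and by 0.26 with GC and length trends removed. The repressor BHLHE40 fell by 0.55 ± 0.0364 there (edgeR adjusted p = 1.61e-11) and was the gene that rose in aC against FCP, by 0.16 ± 0.0304 (adjusted p = 0.000871). The FBG against Mock counts were 7 risen and 1 fallen with summed counts per length.

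Among 12 other PPAR and hypoxia targets, 11 passed the filter, and they did not all go with ANGPTL4. In aC against Mock 3 rose and 5 fell and in FCP against Mock 3 rose and 5 fell. Of all tested genes 38% rose and 36.7% fell in aC, and 37.3% and 36.1% in FCP. In aC against FCP 2 of these targets rose and 0 fell, likewise at an unadjusted edgeR p under 0.05 and with DESeq2. In FBG against Mock 0 rose and 7 fell, with a median of -0.31 log2 beside 0.015 over all genes. That edgeR count of 0 risen was 0 under all 16 alternatives too, DESeq2 among them, and 0 at an unadjusted p under 0.05. ACADVL, an enzyme of fatty acid oxidation, fell by 0.58 ± 0.0271 in FBG against Mock (edgeR adjusted p = 3.66e-14), or 0.34 with GC and length trends removed, and rose by 0.15 ± 0.0249 in aC against FCP (adjusted p = 0.000194). CPT1A, which brings fatty acids into mitochondria, fell by 0.54 ± 0.0458 in FBG against Mock (edgeR adjusted p = 9.46e-10). The hypoxia target NDRG1 rose by 0.36 ± 0.0542 in aC against FCP (edgeR adjusted p = 9.81e-05).

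The cell type markers moved as follows beside these results, and their part in them was not tested. All 6 basal and all 7 epithelial markers rose in aC and in FCP against Mock. Between FBG and Mock 2 basal markers rose and 1 fell, each by 2-fold or more. KRT5 rose by 1.84 ± 0.185 log2 (edgeR adjusted p = 1.37e-07) and LAMB3 by 1.54 ± 0.21 (adjusted p = 2.59e-06). Of the epithelial markers 4 rose and 2 fell there, with a median of 0.998 log2 beside 0.015 over all genes. By 2-fold or more, 3 epithelial markers rose and 0 fell. The KRT5 call was lost with GC and length trends removed (2.05, edgeR adjusted p = 0.437), with the replicate block (adjusted p = 0.233) and without FBG replicate 1 (1.902) or 2 (1.765). The epithelial markers that fell were KRT18, down by 0.32 ± 0.0189 (edgeR adjusted p = 2.52e-12), and KRT8, down by 0.23 ± 0.0184 (adjusted p = 4.54e-10). With GC and length trends removed KRT18 was -0.099 and KRT8 -0.017, not called, and with summed counts per length they were -0.14 and -0.054. Between aC and FCP 3 basal markers rose, with LAMB3 up by 0.36 ± 0.0204 (edgeR adjusted p = 3.33e-11) and TP63 by 0.46 ± 0.0494 (adjusted p = 9.83e-07). There 3 epithelial markers fell, with KRT18 down by 0.13 ± 0.0163 (edgeR adjusted p = 1.19e-05) and KRT8 by 0.10 ± 0.0154 (adjusted p = 7.52e-05).

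Of 6 tested fibroblast markers 1 rose and 5 fell in aC and in FCP against Mock, and 4 fell in FBG against Mock. COL1A1 fell by 0.99 ± 0.0138 in FBG against Mock (edgeR adjusted p = 3.59e-23) and THY1 by 0.83 ± 0.0362 (adjusted p = 1.18e-14). COL1A1 rose by 0.094 ± 0.0206 in aC against FCP (edgeR adjusted p = 0.00388), a call lost with GC and length trends removed (0.048), with the replicate block (adjusted p = 0.0567) and without FBG replicate 1 (0.086), FBG replicate 2 (0.093) or aC replicate 1 (0.081). Immune markers summed to 14.4 to 14.6 TMM-scaled CPM in aC, 13.98 to 14.6 in FCP, 20.2 to 22.9 in FBG and 28.7 to 34.6 in Mock, with 3, 3, 2 and 3 of 6 at 0 in those groups. CD68 was the marker that fell in FBG against Mock, by 0.57 ± 0.0926 (edgeR adjusted p = 1.67e-05), or 0.36 with GC and length trends removed. Endothelial markers summed to 2.41 to 3.93 CPM in aC, 2.58 to 2.71 in FCP, 0.674 to 0.741 in FBG and 0.933 to 1.0 in Mock. CDH5 fell in FBG against Mock (edgeR adjusted p = 0.0195), with counts of 33 and 23 in aC, 21 and 20 in FCP, 0 and 0 in FBG and 4 and 1 in Mock. The call was lost without FBG replicate 1 (adjusted p = 0.0964), FBG replicate 2 (adjusted p = 0.0951) or Mock replicate 1 (adjusted p = 0.24), each by edgeR. DESeq2 gave CDH5 no adjusted p, and with only the FBG and Mock libraries it did not pass the filter.

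For each of the 8 genes the closest profile was sought among 14021 tested genes, as the distance between log2 CPM profiles over the 8 libraries, each centred on its own mean. The 8 libraries form 4 pairs, so these likenesses are a description. Nearest to ANGPTL4 were ABCC3 (distance 0.21) and NFKBIA (0.22), and the NFKBIA levels averaged 151.3 TMM-scaled CPM in aC, 103.0 in FCP, 33.8 in FBG and 53.3 in Mock. Nearest to DUSP1 were RPL28 (0.10) and RTL6 (0.11), and to ZFP36 CTBP1 (0.044) and RPL10A (0.061). Nearest to TSC22D3 were PAAF1 (0.12) and SCARA3 (0.19), and to PER1 KCMF1 (0.055) and DHX8 (0.06). Nearest to SGK1 were NCOA1 (0.21), a coactivator of steroid receptors that averaged 31.4 CPM in aC, 32.0 in FCP, 47.7 in FBG and 29.5 in Mock, and FAM200B (0.23). FKBP5 lay closest to CD164 (0.035) and FAM171A1 (0.066), and NR3C1 to SP140L and FGF2 (0.18 each).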

How the data were processed

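RNA of BEAS-2B cells was sequenced in 8 libraries, 2 in each of 4 groups, grouped by the labels' titles. Each deposited file holds raw read-pair counts for 50006 genes. Per the file headers, featureCounts 1.6.0 summed exons to genes in paired-end mode, and neither a strand option nor one for multi-mapping reads was set. The submitters' processing notes name featureCounts 1.6.2, Trimmomatic 0.39, HISAT2 2.2.1 and SAMtools 1.9, and the build GRCh38.p14. Reads of a gene and an overlapping neighbour cannot be told apart without strand, but NR3C1 and FKBP5 were the only members with shared exon bases, 22 and 76, and the neighbours had at most 17 and 4 counts.

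From the counts, TMM-scaled CPM and TPM (with the deposited gene length) were computed. Testing used edgeR 4.0.16 in R 4.3.3 (quasi-likelihood, robust, filterByExpr by group), with all 8 libraries in 1 fit (4 residual degrees of freedom), Benjamini-Hochberg within each of 6 comparisons, and a call under 0.05. Standard errors are the fold change over the square root of F and so approximate, and 95% intervals use t on 4 degrees of freedom. The tests also borrow an estimate of spread across genes, so the intervals are wider than the p-values imply. Over genes without a copy, the variance within a pair was 1.27 to 1.34 times that of counting alone, and each library was kept as a sample. Counting intervals cover counting error only. The 16 alternatives were DESeq2's size factors, library size alone, summed counts per length (added after seeing that TPM and CPM ordered groups differently), no filter, the DESeq2 1.42.0 Wald test, only the 2 groups compared, the replicate block, GC and length trends removed (over 13569 genes, 83.2% of those tested), and leaving out each library.

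The 8 members and the 12 gene lists were chosen with earlier results of these data known. From each list the text names the 2 called genes with the smallest p in FBG against Mock and in aC against FCP. The likeness measure is a Euclidean distance over genes listed at 1 place and with a symbol not starting in LOC. CDKN1C, TNF, IER3, DUSP16, COL3A1, PTPRC and AIF1 are listed at a second place, so counting could split them and they are uncertain.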

Additional observations from a re-analysis of the deposited data

How the results depend on the processing

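Of 768 recomputed fold changes of the 8 genes (48 differences, 16 alternatives), 685 kept both direction and side of the threshold, 42 lost a call, 8 gained one and 33 changed sign. ANGPTL4 kept all 96 of its own, and DUSP1 kept 90 of 96, the others all in aC against FCP. Each setting changed the processing of all genes at once, and the cause of a change for a single gene was not tested.

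With GC and length trends removed, the log2 fold change of NR3C1 turned to -0.323 for aC, -0.618 for FCP and -0.162 for FBG against Mock, and to -0.161 for aC against FBG. That of FKBP5 turned to -0.466 for aC and -0.553 for FCP against Mock, and to -0.12 for aC and -0.207 for FCP against FBG. Values turned to 0.021 for TSC22D3 and 0.15 for PER1 in FBG against Mock, to -0.086 for SGK1 in aC and -0.121 in FCP against Mock, and to 0.016 for ZFP36 in aC against FBG. With library size alone FKBP5 turned to 0.06 and PER1 to 0.003 in FBG against Mock. With summed counts per length, FKBP5 turned to 0.12, TSC22D3 to 0.033 and PER1 to 0.063 in FBG against Mock. PER1 also turned to 0.046 in aC and 0.087 in FCP against Mock and to 0.025 in FCP against FBG, NR3C1 to 0.073 in FCP against FBG and ZFP36 to 0.001 in aC against FBG. Without a filter SGK1 turned to -0.003 in aC against FCP.

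Leaving out 1 library at a time gave -0.004 to 0.029 for FKBP5 in FCP against Mock and -0.073 to 0.143 for SGK1 in FCP against Mock. It gave -0.016 to 0.081 for SGK1 in aC against Mock and -0.102 to 0.114 in aC against FCP. None of these was a call. Where this left a group with 1 library, that library was assumed to vary like the other groups.

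Of the 8 genes, 5 were called in aC against FCP, against 3 with DESeq2's Wald test, 3 with the replicate block and 2 to 5 with 1 library left out. All 8 were called in FCP against FBG, against 5 with summed counts per length. Of all 16307 tested genes, 10888 (66.8%) were called there, and 11168 with summed counts per length. Over all genes, 1470 were called in aC against FCP, against 867 with DESeq2's Wald test and 853 to 909 without an aC or FCP library.

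Same-numbered libraries showed little shared deviation (Pearson r -0.024 to 0.098 over 9099 genes). The variance within a pair was only 1.27 to 1.34 times that of counting, so a shared deviation could hardly show. Whether the numbers mark a pairing therefore cannot be told from this. The replicate block moved the counts of members only in FCP against Mock, where NR3C1 lost its call (0.088, edgeR adjusted p = 0.0594), and in aC against FCP, where TSC22D3 (adjusted p = 0.0503) and DUSP1 (adjusted p = 0.053) lost theirs. Of the 40 differences for which list genes are named by rule, 36 were called under every alternative that could be run, 4 lost a call under some, 11 moved by over 1.5 times under some and 0 changed sign. Of 2304 recomputed list counts, 2187 stayed within 1.5 times the main count. At this depth SGK1 and TSC22D3 have the widest fitted standard errors. In FBG, however, ANGPTL4 had the fewest counts, 428 over 2 libraries. Its counting error in FBG against Mock was 0.0871, beside 0.0624 for TSC22D3.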
